A study of Mus musculus with 4 samples.

Results

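The cytosolic ribosomal protein genes described here are 83 genes of the mouse cerebellar Atoh1 lineage, of 32285 genes listed in the count matrices. They were taken by symbol: names that open with Rpl or Rps and a digit, together with Rplp0, Rplp1, Rplp2 and Rpsa, without pseudogene names and the Rps6k kinases, and with at least 50 unique molecular identifiers (UMIs, one per captured mRNA molecule) summed over all libraries. Of 86 matching symbols, 3 fell under that minimum: Rpl39l had 1 UMI, and Rpl10l and Rpl3l had 0. The least abundant gene kept was Rps27rt with 5509 UMIs, and all 83 genes passed the low-count filter in every comparison. By symbol, 34 genes belong to the small (40S) subunit and 49 to the large (60S) subunit. One of them, Rps19bp1, is taken by the name pattern but encodes a protein that binds Rps19 and is not a structural part of the ribosome.

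Cells of the lineage had been sorted by tdTomato fluorescence from E14.5 cerebella (mid-gestation embryos) and captured by 10x Genomics 3′ single-cell RNA-seq. The 2 control libraries carried Atoh1-Cre/+ and R26LSL-tdT/+, and the 2 En1/2 CKO libraries carried En1lox/lox and En2lox/lox in addition to Atoh1-Cre/+ and R26LSL-tdT/+. The Cre driver and the tdTomato reporter are therefore shared by both groups, recombination follows Atoh1-Cre, and each library pooled several animals. A cell was kept if it held 500 genes or more, 1000 UMIs or more, and mitochondrial UMIs of no more than 10%. They were placed in 3 gates that do not overlap: Atoh1 cells (at least 1 Atoh1 UMI), Neurod1 cells (no Atoh1 UMI, at least 1 Neurod1 UMI, Meis2 not above Pax6) and Meis2 > Pax6 cells (no Atoh1 UMI, more Meis2 than Pax6 UMIs). Atoh1 marks rhombic lip and granule cell precursors, Neurod1 differentiating granule cells, and Meis2 without Pax6 the excitatory neurons of the cerebellar nuclei.

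Each ribosome holds a single copy of nearly every ribosomal protein, so cells make these proteins in near-equal amounts, mostly from one expressed gene each. Their mRNAs are among the most abundant of any dividing cell. Nearly all of them begin with a 5′ terminal oligopyrimidine (TOP) tract, a cytosine at the cap followed by a run of pyrimidines, through which mTOR signalling controls their translation as a group. Proliferating precursors are known to build ribosomes faster than neurons that have left the cell cycle.

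The libraries held 14998150 to 33709450 UMIs, and 2007 to 3931 cells per library were kept. The median kept cell was deeper in CKO 1 and 2 (5352 and 5544 UMIs) than in controls 1 and 2 (2734 and 2122 UMIs). En2, one of the deleted genes, stood at 136.5 and 167 CPM (UMI counts scaled to one fixed library total) in controls 1 and 2, and at 29.0 and 19.8 CPM in CKO 1 and 2. En1 stood at 238 and 382 CPM against 150 and 253 CPM. Within Meis2 > Pax6 cells, though, En1 was at 538 and 446 CPM in controls 1 and 2 and at 404 and 893 CPM in CKO 1 and 2, and in Neurod1 cells CKO 2 was at 277 CPM, again above both controls. So En1 does not check the label of CKO 2 in these gates, while En2 was lower in both CKO libraries in every gate; whether its 3′ tags lie inside the deleted part is not given in the sources used here. Between any pair of libraries, 1 to 6 kept cells shared a barcode. Hemoglobin and other erythroid markers (8 genes) summed to 1267 and 4818 CPM in controls 1 and 2 and to 2108 and 3.26 CPM in CKO 1 and 2. The 6 markers of dividing cells summed to 1576 and 654 CPM in controls 1 and 2, against 1858 and 1799 CPM for the CKO. Of the gates, Atoh1 cells held the most of the dividing-cell list (1410 to 2287 CPM) and Meis2 > Pax6 cells the least (137 to 305 CPM). The list of excitatory nuclei markers stood at 1676 to 2413 CPM in Meis2 > Pax6 cells and at 581 to 1267 CPM in Atoh1 cells. Granule lineage markers summed to 2253 and 2258 CPM in Meis2 > Pax6 cells of controls 1 and 2, and to 3302 and 3727 CPM in CKO 1 and 2. In Atoh1 cells they summed to 2702 and 2495 CPM against 2714 and 2813 CPM. In both CKO libraries this list was thus higher in Meis2 > Pax6 than in Atoh1 cells. Cntn2 was its largest gene in Meis2 > Pax6 cells, at 664 and 839 CPM in controls 1 and 2 and 1300 and 1548 CPM in CKO 1 and 2. The other genes of the list were not summed apart. These lists therefore do not show that the gate holds nuclei neurons alone.

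A TOP tract was found at a minority of the annotated starts of these genes. A few starts that hold one are printed here, to show what it looks like and how near some copies lie to each other. RefSeq promoters (GRCm38.p6, the coordinates of mm10) were matched by symbol for 63 of the 83 genes. The match was a C within 3 bases of an annotated start that opens at least 5 pyrimidines. The base before that C had to be a purine, except where the C was the annotated start itself. Such a match was found in 19 of the 63 (30.2%), and in 10.3% of 27025 genes with a promoter entry. At the other starts no such match was found, although some, such as those of Rpl27a and Rpl7a, have pyrimidines across the start. The motif CGGAAG, the core letters of an ETS factor site, lay on either strand in the 250 bases before the start of 33 of the 63 (52.4%), and in 15.3% of all genes with an entry. These are matches of letters in fixed windows, and an annotated start can lie several bases from the start used in these cells. The 30-base windows below were all chosen from the 19. They run from 10 bases before the annotated start to 20 bases from it onward, 5′ to 3′ on the gene's strand. The match is in capitals. In Rpl35, Rpl38 and Rpl15 it opens at the annotated start, and more pyrimidines lie directly before it.
Rps27 (chr3:90213629-90213658, minus strand): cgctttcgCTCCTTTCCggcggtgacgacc
Rps27rt (chr9:114982720-114982749, minus strand): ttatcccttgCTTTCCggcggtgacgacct
Rps27l (chr9:66946076-66946105, plus strand): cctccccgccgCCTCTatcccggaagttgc
Rpl35 (chr2:39005112-39005141, minus strand): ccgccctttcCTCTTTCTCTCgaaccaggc
Rpl38 (chr11:114668570-114668599, plus strand): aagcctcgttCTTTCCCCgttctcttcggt
Rpl15 (chr14:18270967-18270996, minus strand): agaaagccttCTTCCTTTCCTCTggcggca
Rps6 (chr4:86857348-86857377, minus strand): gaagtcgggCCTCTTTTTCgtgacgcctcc
Rps27 and its retrogene Rps27rt share a stretch of 19 bases in these windows, while Rps27 and its paralog Rps27l share no stretch over 4 bases. Rps27 and Rps27rt, like other ribosomal protein genes with processed copies in the genome, may have reads that the counting cannot assign to a single copy. The levels of such genes are therefore uncertain. The windows lie at the 5′ end and the counted tags at the 3′ end, so the shared stretch does not measure this.

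The 83 genes differed widely in abundance. Over all kept cells, Rps29 was the most abundant, with a mean of 4586 CPM over the 4 libraries (TMM-scaled CPM, per molecule and not per length), followed by Rpl41 at 3040.5 CPM. The median gene, Rps16, stood at 1653 CPM. The 5 least abundant were Rps27rt at 57.6 CPM, Rps19bp1 at 62.0 CPM, Rpl7l1 at 86.8 CPM, Rps27l at 249 CPM and Rpl36al at 379.6 CPM. Apart from Rps19bp1, these low genes are all copies or paralogs of a more abundant ribosomal protein gene. The small subunit took 44.4% to 46.5% of the ribosomal protein UMIs in every gate and library, so the balance between the subunits moved by about 2 percentage points at most.

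Ribosomal protein mRNA made up the largest share of all UMIs in Atoh1 cells and the smallest in Meis2 > Pax6 cells, in each of the 4 libraries. In Atoh1 cells the share was 16.4% in control 1, 11.1% in control 2, 15.8% in CKO 1 and 18.9% in CKO 2. Neurod1 cells held 10.4%, 7.67%, 11.6% and 14.9% in the same order. In Meis2 > Pax6 cells the share was 6.19%, 6.03%, 7.37% and 7.50%. The difference between Meis2 > Pax6 and Atoh1 cells was -8.76 ± 2.74 percentage points (SD, n = 4 libraries), and that between Neurod1 and Atoh1 cells was -4.37 ± 1.12 percentage points (SD, n = 4). Both had the same sign in 4 of 4 libraries, and the exact two-sided paired permutation p was 0.125 for each, the smallest that 4 pairs allow. Depth moved with the gates: the median Atoh1 cell held 2716 to 16380.5 UMIs and the median Meis2 > Pax6 cell 2079.5 to 2559.5 UMIs. Among cells under 4000 UMIs the 2 differences were -2.35 ± 0.69 and -1.58 ± 0.20 percentage points (SD, n = 4), and again negative in 4 of 4 libraries. For Neurod1 cells the difference was -2.13 ± 1.15 percentage points with gates that may overlap and -2.75 ± 0.73 with gates set on cells thinned to 1000 UMIs (SD, n = 4). The dividing-cell markers given above fell in the same order of gates; their part in the difference was not tested.

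**Figure D1:**
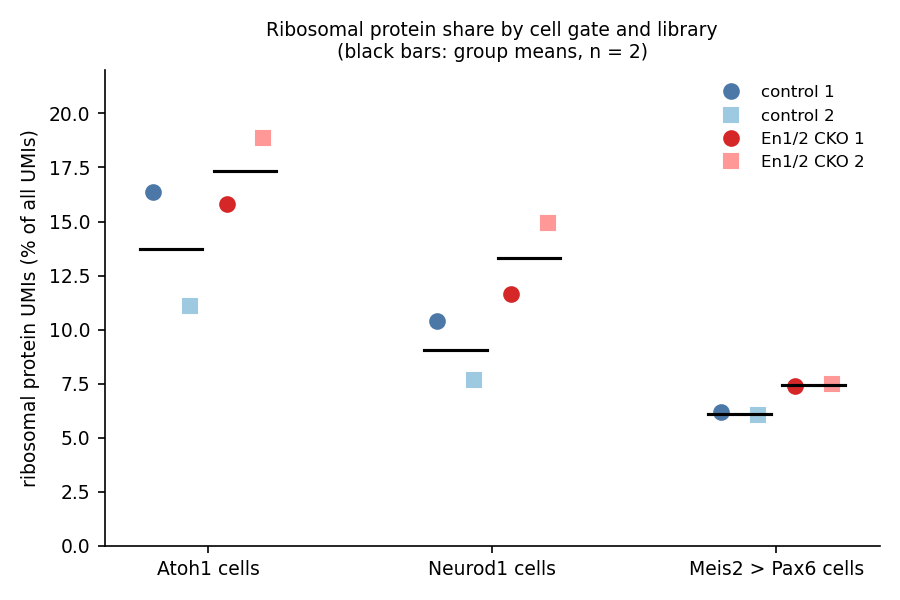
Share of all UMIs that came from the 83 ribosomal protein genes (percent, vertical axis) in each cell gate (horizontal axis), with 1 point per library and black bars for the mean of each group. Every library drops from Atoh1 to Neurod1 to Meis2 > Pax6 cells, and in Atoh1 cells CKO 1 (15.8%) lies between the controls (11.1% and 16.4%).

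Gene by gene, the whole set was lower in Meis2 > Pax6 cells than in Atoh1 cells. With the library as a block, edgeR's quasi-likelihood test called all 83 genes lower in Meis2 > Pax6 than in Atoh1 cells (Benjamini-Hochberg adjusted p under 0.05). In that comparison 57.4% of 11814 genes were called in either direction and 28.5% were called lower. The median log2 fold change of the 83 genes was -1.27, against -0.01 over all genes tested, and single genes ranged from -1.66 to -0.80. Small subunit genes had a median of -1.31 and large subunit genes of -1.23. Among cells under 4000 UMIs 80 of the 83 were called lower, where 11.1% of all genes were, with a median of -0.48.

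Rps27l, a paralog of Rps27 known as a p53 target, fell the most between these gates. It stood at 319 ± 80.4 CPM in Atoh1 cells and 98.7 ± 14.6 CPM in Meis2 > Pax6 cells (SD, n = 4 libraries). Its log2 ratio was -1.94 and -1.09 in controls 1 and 2 and -1.95 and -1.66 in CKO 1 and 2 (edgeR log2 fold change -1.66, SE 0.15, adjusted p = 1.3e-05). Next came Rps2, a small subunit protein near the mRNA entry channel, with a log2 fold change of -1.62 (SE 0.15), and Rpl22l1, the paralog of Rpl22, with -1.58 (SE 0.14). Rpl12 and Rplp1, both at the stalk of the large subunit that recruits elongation factors, fell by 1.56 and 1.51 on the log2 scale. Their stalk partner Rplp0 fell by 1.41, from 2253 ± 603 CPM to 836 ± 165 CPM (SD, n = 4). Rplp2, also of the stalk, fell by 1.25, less than the median of the set, from 1727 ± 542 CPM to 703 ± 97.9 CPM. Rpsa, the laminin receptor precursor of the small subunit, fell by 1.46, from 2765 ± 707 CPM to 981 ± 134 CPM. At the other end stood Rps19bp1, which is no structural protein (-0.80, SE 0.14), the retrogene Rps27rt (-0.95), and Rpl36al, the less abundant paralog of Rpl36a (-0.98, SE 0.12).

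Between Neurod1 and Atoh1 cells 82 of the 83 genes were called lower by edgeR, where 47.9% of 12170 genes were called and 23.9% were called lower. The median log2 fold change was -0.50, smaller than the -1.27 of the Meis2 > Pax6 cells, and single genes ranged from -0.74 to -0.23. Rpl22l1 was again among the lowest, at 803 ± 187 CPM in Atoh1 and 479 ± 109 CPM in Neurod1 cells (SD, n = 4, log2 fold change -0.74, SE 0.08, edgeR adjusted p = 1.2e-06). Rpl12 (-0.68), Rpl14 (-0.65), Rpsa (-0.63) and Rps2 (-0.62) followed. The gene not called was Rps19bp1, with a log2 fold change of -0.23 (SE 0.11, edgeR adjusted p = 0.0867). Rpl10, the X-linked protein that joins the large subunit late in its assembly, showed one of the smallest differences at -0.29 (SE 0.08, edgeR adjusted p = 0.00736). This comparison rests on the library block: without it, 1 of the 83 genes was called lower, where 7.58% of all genes were, with a median of -0.49. The median was -0.25 with gates that may overlap and -0.27 with gates set on thinned cells.

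**Figure D2:**
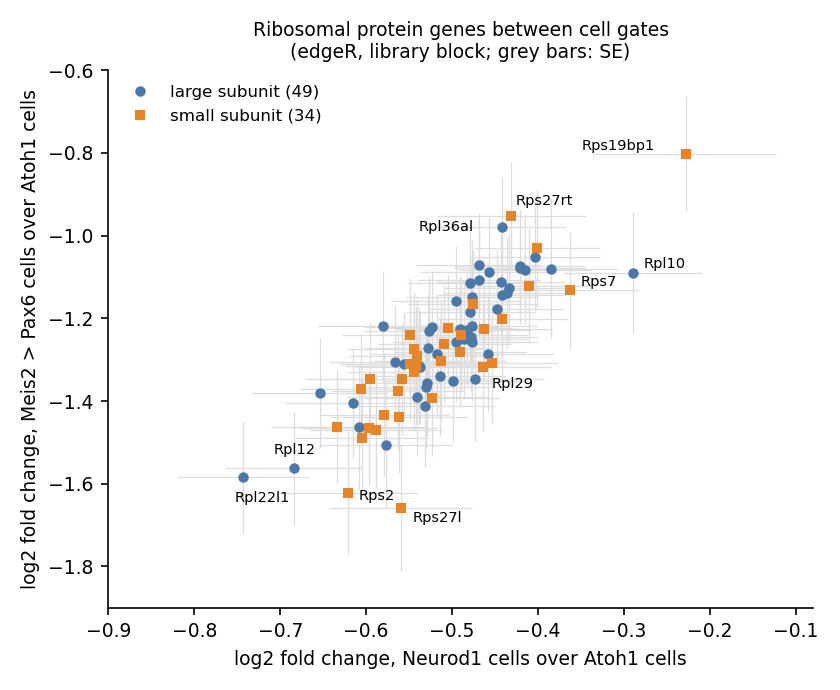
Each point is 1 of the 83 genes, with its log2 fold change of Neurod1 over Atoh1 cells (horizontal axis) and of Meis2 > Pax6 over Atoh1 cells (vertical axis), and grey bars for the standard errors. All points lie below 0 on both axes; Rpl22l1, Rpl12, Rps2 and Rps27l sit lowest and Rps19bp1 highest.

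When the ribosomal protein total itself was used as the library size, the comparison asked which members changed relative to the rest of the set. Between Meis2 > Pax6 and Atoh1 cells 10 genes were then called: Rps27l, Rps2, Rpl22l1, Rpl12, Rplp1 and Rps12 were lower within the set, and Rpl37, Rpl11, Rps15 and Rps19bp1 were higher. Between Neurod1 and Atoh1 cells 11 genes were called, with Rpl22l1, Rpl12, Rpl14, Rpsa, Rplp0 and Rps12 lower and Rps21, Rpl11, Rps7, Rpl10 and Rps19bp1 higher. The sizes were small, from -0.39 (Rps27l) to 0.45 (Rps19bp1) in the first comparison and from -0.23 (Rpl22l1) to 0.27 (Rps19bp1) in the second. Under this scaling 9570 genes were called higher and 393 lower over the whole table in the first comparison, against 3410 and 3367 with TMM scaling. In the second they were 7721 and 588, against 2915 and 2910.

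Some paralog pairs held different ratios in the gates. Rpl36al UMIs amounted to 42.5%, 51.2%, 47.6% and 36.9% of Rpl36a UMIs in the Atoh1 cells of controls 1 and 2 and CKO 1 and 2. In Meis2 > Pax6 cells the same ratio was 62.4%, 59.3%, 67.7% and 58.5%, higher in each library and without overlap. Rps27l amounted to 13.8%, 11.2%, 21.7% and 11.3% of Rps27 in Atoh1 cells and to 9.78%, 8.79%, 12.5% and 9.79% in Meis2 > Pax6 cells, lower in each library although the ranges overlapped. Rpl22l1 amounted to 80.4% ± 5.7 of Rpl22 in Atoh1 cells and 69.8% ± 6.1 in Neurod1 cells, though control 2 hardly moved (77.9% and 77.0%). Rpl7l1, a nucleolar relative of Rpl7, stood at 6.73% ± 0.67 and 7.41% ± 1.41 of Rpl7 in Atoh1 and Meis2 > Pax6 cells. CKO 1 went the other way (6.29% and 5.96%) and control 1 hardly moved (7.41% and 7.49%). Rps27rt stood at 3.07% ± 0.46 and 3.64% ± 0.58 of Rps27 in those gates. Rpl39l, Rpl10l and Rpl3l, the copies known from testis or muscle, were at the 1, 0 and 0 UMIs given above.

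Other genes of ribosome production and translation were lower in Meis2 > Pax6 and Neurod1 cells in most cases. Over all genes tested, edgeR called 28.5% lower in Meis2 > Pax6 than in Atoh1 cells and 23.9% lower in Neurod1 than in Atoh1 cells. Of 45 ribosome biogenesis genes, it called 35 lower and 2 higher in Meis2 > Pax6 cells (median log2 fold change -0.64). In Neurod1 cells it called 31 lower and 1 higher (-0.42). Npm1, the nucleolar chaperone nucleophosmin, fell by 1.64, from 1564 ± 343 CPM to 494 ± 44.8 CPM (SD, n = 4) in Meis2 > Pax6 cells. Ncl, the nucleolar protein nucleolin, fell by 0.80, from 969.5 ± 202 CPM to 551 ± 66.9 CPM. The genes called higher in Meis2 > Pax6 cells were Rrn3, an RNA polymerase I factor (0.35), and Las1l, a pre-rRNA processing factor (0.29); Rrn3 was the one called higher in Neurod1 cells (0.31). Of 36 translation factors with TOP mRNAs, 32 were called lower and 0 higher in Meis2 > Pax6 cells (-0.93), and 30 lower and 0 higher in Neurod1 cells (-0.36). Eef1a1, the elongation factor that delivers tRNA, fell by 0.98, from 5168 ± 1408 CPM to 2562 ± 485 CPM. Pabpc1, the poly(A)-binding protein, fell by 1.20. Of 78 mitochondrial ribosomal protein genes, which serve a separate ribosome, 67 were called lower and 1 (Mrps11) higher in Meis2 > Pax6 cells (-0.67). In Neurod1 cells 45 were called lower and 0 higher (-0.25). DESeq2 called 26 of the 78 there in either direction, and no DESeq2 share over all genes is given here.

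Between genotypes, the summed share of ribosomal protein UMIs was larger in the CKO libraries, without overlap, in all kept cells, Neurod1 cells and Meis2 > Pax6 cells; in Atoh1 cells the groups overlapped. The mix of gates also moved with the library: of the kept cells, 755 and 397 were Atoh1 cells, 888 and 625 Neurod1 cells and 516 and 2127 Meis2 > Pax6 cells in controls 1 and 2. In CKO 1 and 2 they were 922 and 1616, 372 and 858, and 390 and 296. Over all kept cells the share was 12.9% and 7.30% in controls 1 and 2, and 14.2% and 17.0% in CKO 1 and 2. The CKO minus control difference was 5.54 percentage points over all kept cells, 3.60 in Atoh1 cells, 4.26 in Neurod1 cells and 1.32 in Meis2 > Pax6 cells. With gates that may overlap, the Meis2 > Pax6 shares were 7.34% and 6.31% in controls 1 and 2, against 11.4% and 11.2% for the CKO, a difference of 4.44 points. With gates set on cells thinned to 1000 UMIs that difference was 3.92 points, and in Atoh1 cells the groups no longer overlapped (15.7% and 11.2% in controls 1 and 2, against 16.2% and 18.8%). With gates that do not overlap the exact two-sided permutation p was 0.333 for each set but Atoh1 cells, where it was 0.667; with 2 libraries against 2 no p below 0.333 can be reached. In cells of 4000 UMIs or more with mitochondrial UMIs of no more than 5%, the difference over all kept cells was 2.96 percentage points and the groups overlapped (exact permutation p = 0.667). Counting error was small beside the spread of libraries: the widest 95% Wilson interval of a share was ± 0.053 percentage points, or ± 0.095 in cells under 4000 UMIs and ± 0.14 in cells of at least 8000 UMIs, and such intervals cover counting error only.

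The direction of this difference turned with the depth of the cells. Among cells under 4000 UMIs, the share over all kept cells was 7.61% and 6.39% in controls 1 and 2, against 5.89% and 5.06% in CKO 1 and 2. Atoh1 cells of that depth held 9.40% and 7.76% in controls 1 and 2, against 7.30% and 6.23% for the CKO. Neurod1 cells held 7.62% and 6.33% against 5.59% and 4.85%, and Meis2 > Pax6 cells 6.05% and 6.01% against 5.15% and 4.07%. Both CKO libraries were below both controls in every gate (exact permutation p = 0.333 in each). In cells of at least 8000 UMIs the groups overlapped in all kept, Atoh1 and Neurod1 cells. Over all kept cells controls 1 and 2 held 17.1% and 13.3%, and CKO 1 and 2 held 15.5% and 18.7%. There CKO 1 lay below control 1 and CKO 2 above both. The few Meis2 > Pax6 cells of that depth (12 and 16 in controls 1 and 2, and 41 and 26 in CKO 1 and 2) had shares without overlap, at 8.01% and 9.87% against 10.2% and 13.4%. In cells of 4000 UMIs or more with no more than 5% mitochondrial UMIs, Meis2 > Pax6 cells held 7.38% and 7.93% against 9.97% and 12.3%.

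**Figure D3:**
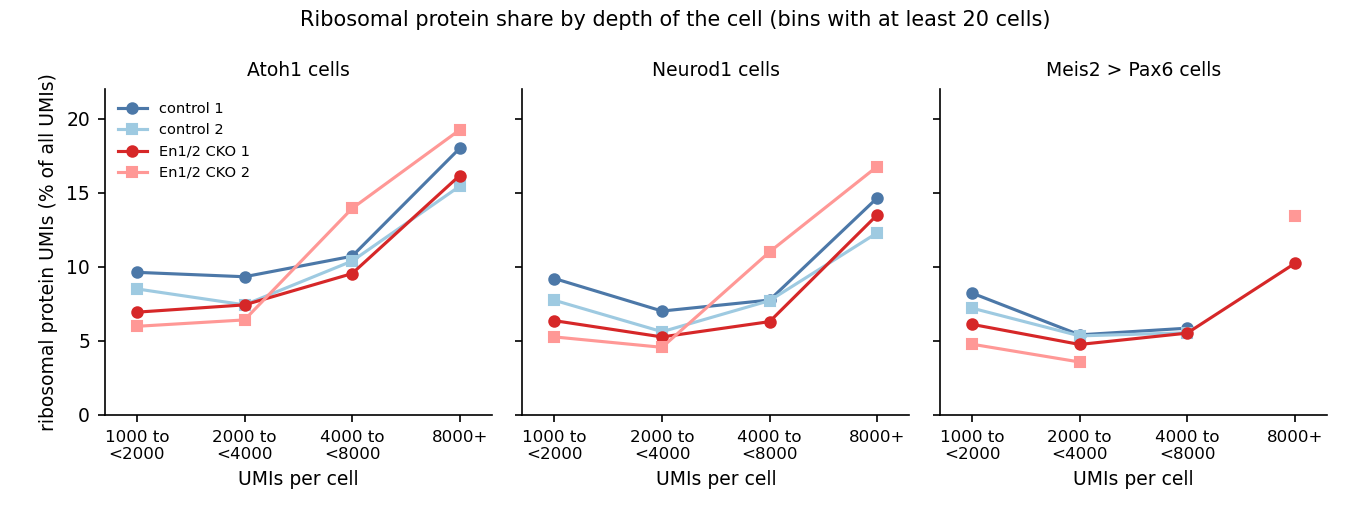
Share of ribosomal protein UMIs (percent, vertical axis) by UMIs per cell (horizontal axis, 4 bins) for each gate, with 1 line per library and only bins of at least 20 cells. In the 2 lowest bins the CKO libraries lie below the controls, save for Atoh1 cells of 2000 to under 4000 UMIs, where CKO 1 and control 2 are both at 7.43%. Each line that reaches the deepest bin is highest there.

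Over all kept cells of each library the share was highest in the deepest cells, but it did not rise steadily with depth. In control 1 it was 9.01% in cells of 1000 to under 2000 UMIs and 6.96% in cells of 2000 to under 4000 UMIs. It was 17.1% in cells of at least 8000 UMIs. In CKO 2 these shares were 5.36%, 4.78% and 18.7%. Meis2 > Pax6 cells of control 1 held 8.22% in the shallowest bin and 8.01% in the 12 cells of at least 8000 UMIs. The CKO libraries held more deep cells: 902 of 2007 and 1754 of 3697 kept cells had at least 8000 UMIs, against 423 of 2911 and 88 of 3931 in controls 1 and 2. The mean of the share per cell weighs deep cells less than the pooled share does. Over all kept cells that mean was 9.44% and 6.90% in controls 1 and 2, and 10.5% and 12.1% in CKO 1 and 2. In Atoh1 cells it was 13.4% and 9.18%, against 14.7% and 17.6% for the CKO, without overlap. Neurod1 cells overlapped (8.55% and 7.09%, against 8.45% and 10.9%). In Meis2 > Pax6 cells it was 6.50% and 6.30% in controls 1 and 2, and 5.89% and 5.05% in CKO 1 and 2, the opposite order to the pooled share. RNA quality also moved with depth: mitochondrial genes took 6.03% and 2.37% of the UMIs in cells of control 1 under 4000 and of at least 8000 UMIs. Malat1, a nuclear RNA, took 3.85% and 7.56% of the UMIs of kept cells in controls 1 and 2 and 1.71% and 2.88% in CKO 1 and 2. The summed list of 6 glial and radial glial markers was higher in both CKO libraries in every set of cells. Over all kept cells it stood at 1099.6 and 567 CPM in controls 1 and 2 and 1616 and 1226 CPM in CKO 1 and 2. Vim alone made up most of this, at 793 and 465 CPM against 1343 and 943 CPM. The list thus mainly reads Vim, and its other genes were not summed apart. For Meis2 > Pax6 cells the list stood at 548 and 397 CPM, against 657 and 810 CPM for the CKO. Vim in those cells was at 317 and 333 CPM, against 529 and 442 CPM. The 12 granule lineage markers there stood at 2253 and 2258 CPM, against 3302 and 3727 CPM. Of these, Cntn2 alone was at 664 and 839 CPM, against 1300 and 1548 CPM. The part of these measures in the genotype difference was not tested.

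No ribosomal protein gene passed the test between genotypes. edgeR's quasi-likelihood test called 0 of the 83 genes in all kept cells, Atoh1, Neurod1 and Meis2 > Pax6 cells, where 0%, 0.0222%, 0.0257% and 0.0666% of all genes tested were called. At an unadjusted p under 0.05 the counts were 14, 2, 64 and 14 genes, where 11.2%, 4.16%, 14% and 5.07% of all genes passed. DESeq2 called 3, 1, 58 and 1, where it called 0.914%, 0.138%, 18.5% and 0.371% of the genes it gave an adjusted p. For Neurod1 cells DESeq2 gave an adjusted p to 80 of the 83 genes and to 963 genes in all. The 83 genes had median log2 fold changes of 0.80, 0.46, 0.70 and 0.30 in the 4 sets of cells, against medians within 0.02 of 0 over all genes tested. With gates that may overlap the median in Meis2 > Pax6 cells was 0.79. Both CKO libraries lay above both controls for 72, 50, 70 and 57 of the 83 genes, where 25.4%, 17.2%, 24.4% and 16.3% of all genes did. They lay below both for 0 of the 83 in each, where 24.4%, 18%, 21.5% and 16.6% of all genes did. Without control 1, edgeR called 52 of the 83 genes higher in all kept cells, where 4.35% of all genes were, and 1 gene in each of the gates, where 0.0908%, 0.0169% and 0.371% were. Leaving out CKO 1 or CKO 2 gave 28 and 9 genes called higher in Neurod1 cells, against 0 with all libraries, where 1.21% and 2.5% of all genes were. Without control 2 the median over all kept cells was 0.46, and 0 genes were called.

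Among cells under 4000 UMIs most of the genes had lower values in the CKO. Both CKO libraries lay below both controls for 53, 44, 58 and 56 of the 83 genes in all kept, Atoh1, Neurod1 and Meis2 > Pax6 cells, where 18.6%, 17.6%, 18.8% and 18.7% of all genes did. They lay above both controls for 0 of the 83, where 19.1%, 18.3%, 18.2% and 19.9% of all genes did. Positive log2 fold changes were left for 2, 4, 2 and 1 of the 83 genes, and medians were -0.36, -0.36, -0.43 and -0.35. edgeR called 0 of the 83 genes in each, and 18, 14, 21 and 20 had an unadjusted p under 0.05, where 5.82%, 5.94%, 7.24% and 7.34% of all genes did. In cells of at least 8000 UMIs both CKO libraries lay above both controls for 39, 27 and 39 of the 83 genes in all kept, Atoh1 and Neurod1 cells, where 15.1%, 15.8% and 17.8% of all genes did, and medians were 0.27, 0.18 and 0.25. Since these sums of cells come from the same libraries, these counts are not independent of each other.

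**Figure D4:**
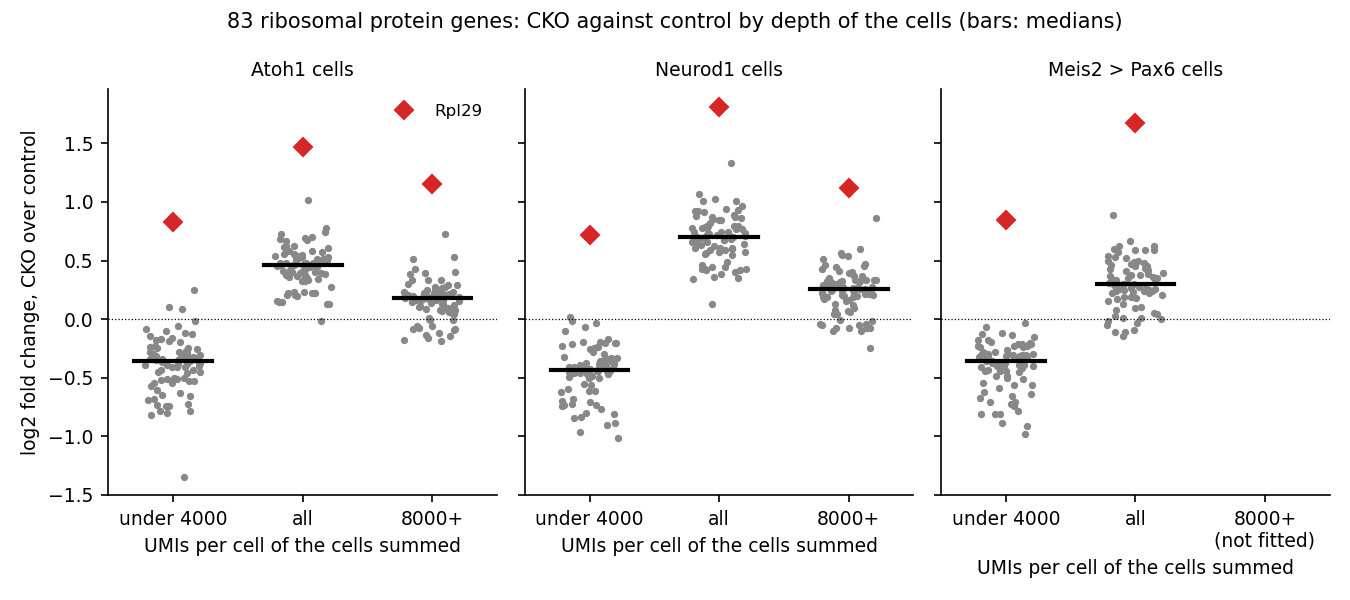
log2 fold change of CKO over control (vertical axis) for each of the 83 genes in sums of cells under 4000 UMIs, of all cells and of cells of at least 8000 UMIs (horizontal axis), by gate, with black bars for medians and a red diamond for Rpl29. Medians lie below 0 for the shallow cells and above 0 for all cells, while Rpl29 stays above 0 in each; Meis2 > Pax6 cells of at least 8000 UMIs were too few to be fitted.

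Rpl29 showed the largest genotype difference of the set. It encodes a large subunit protein found in eukaryotes but not bacteria, and mice without it are viable but small. The gene lies on chromosome 9 (GRCm38, 106429454 to 106431568, plus strand). Over all kept cells it stood at 398 and 91.7 CPM in controls 1 and 2, and at 928 and 793 CPM in CKO 1 and 2, so the groups did not overlap. The controls differed from each other by more than 4 times, and the CKO libraries lay close together. Its log2 fold change was 1.81 (SE 0.62, edgeR adjusted p = 0.440). In Atoh1 cells it stood at 533, 143, 1000 and 881 CPM (1.47, SE 0.51, edgeR adjusted p = 0.970) and in Neurod1 cells at 334, 95.0, 779 and 736 CPM (1.81, SE 0.46, edgeR adjusted p = 0.233). In Meis2 > Pax6 cells it stood at 166, 84.8, 467 and 319 CPM (1.67, SE 0.33, edgeR adjusted p = 0.195). None of the 4 passed the edgeR threshold; DESeq2 called Rpl29 in all kept cells (adjusted p = 0.0276) and in Meis2 > Pax6 cells (adjusted p = 0.00041).

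The library order of Rpl29 was the same in every gate: control 2 lowest, then control 1, CKO 2 and CKO 1. Without control 1 its log2 fold change over all kept cells was 3.26, and without control 2 it was 1.12. As part of the ribosomal protein total, Rpl29 held 33.3, 13.5, 61.2 and 45.0 UMIs per 10000 ribosomal protein UMIs in the Atoh1 cells of controls 1 and 2 and CKO 1 and 2. In Neurod1 cells it held 34.2, 12.6, 64.9 and 46.8, and in Meis2 > Pax6 cells 27.7, 13.6, 62.7 and 43.1. Each library thus kept nearly its own level in all 3 gates, although the gates differ in total ribosomal protein share. With the ribosomal protein total as library size, edgeR called Rpl29 higher in the CKO in Neurod1 cells (log2 1.25, adjusted p = 0.0350) and in none of the other sets of cells. Among cells under 4000 UMIs the groups overlapped, since CKO 2 fell below control 1 (203 and 86.8 CPM in controls 1 and 2, and 314 and 185 CPM in CKO 1 and 2, over all kept cells). Its log2 fold change there was 0.78 (SE 0.43, edgeR adjusted p = 0.770).

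Rpl10 and Rpl17 followed Rpl29 in size. Over all kept cells Rpl10 stood at 495 and 365 CPM in controls 1 and 2, and at 1139 and 992 CPM in CKO 1 and 2 (log2 1.31, SE 0.32, edgeR adjusted p = 0.411). In Neurod1 cells the controls were close together at 435 and 390 CPM, as were the CKO libraries at 1065 and 1013 CPM (log2 1.33, SE 0.20, edgeR adjusted p = 0.0934). Among Neurod1 cells under 4000 UMIs the log2 difference was 0.02 (SE 0.26), with 289.5 and 349 CPM in controls 1 and 2, against 398 and 255 CPM for the CKO. Rpl17, a protein at the exit tunnel of the large subunit, stood at 1058 and 572 CPM against 1718 and 1765 CPM over all kept cells (log2 1.10, SE 0.39, edgeR adjusted p = 0.440). In Atoh1 cells the third largest difference was that of Rpl13a, at 1379 and 796 CPM against 1601 and 2124 CPM (log2 0.78, SE 0.36, edgeR adjusted p = 0.970). In Meis2 > Pax6 cells it was Rpl26, at 361 and 495 CPM against 703 and 657 CPM (log2 0.67, SE 0.23, edgeR adjusted p = 0.776). The paralogs Rps27l and Rpl22l1 had differences of 0.17 (SE 0.21) and 0.21 (SE 0.20) in Meis2 > Pax6 cells, below the median of the set. The differences of Rpl17, Rpl13a, Rpl26, Rps27l and Rpl22l1 turned negative in cells under 4000 UMIs.

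Within the ribosomal protein total, the composition varied more between libraries than between cell gates. Over the 83 genes, the median SD of the log2 share was 0.16 between libraries and 0.06 between gates, and 77 genes varied more between libraries. The libraries came in the same order in all 3 gates for 30 genes. Rps29, a small zinc-binding protein of the small subunit, held 370.2, 408, 190 and 455 UMIs per 10000 in the Atoh1 cells of controls 1 and 2 and CKO 1 and 2. In Meis2 > Pax6 cells it held 363, 424, 184 and 407. CKO 1 was thus the low library in both gates, while CKO 2 lay near the controls.

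Of the 20 genes with the shortest coding length, 18 were lower in CKO 1 than in CKO 2, as were 3 of the 20 longest, among them Rpl6 (log2 difference -0.63, named after its value was seen). Rpl38, a large subunit protein whose loss in mice alters the axial skeleton, held 147, 175, 84.9 and 166.5 UMIs per 10000 in Atoh1 cells. Rpl37 held 184, 195, 117 and 181, and Rps21 held 171, 184, 109.5 and 188. The 20 shortest (at most 351 bases) took 29.0% and 31.5% of the ribosomal protein UMIs in controls 1 and 2, and 20.9% and 30.6% in CKO 1 and 2. The 20 longest (at least 624 bases) took 21.9% and 20.4% in controls 1 and 2, and 24.0% and 20.5% in CKO 1 and 2. Across the 83 genes the log2 difference of CKO 1 and CKO 2 had a Spearman rho of 0.63 with coding length, and the difference of the 2 controls one of 0.31. These are descriptions across genes of single pairs of libraries, and genes are not independent replicates. Genotype differences of short genes therefore rest on a pair of CKO libraries that differ from each other.

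**Figure D5:**
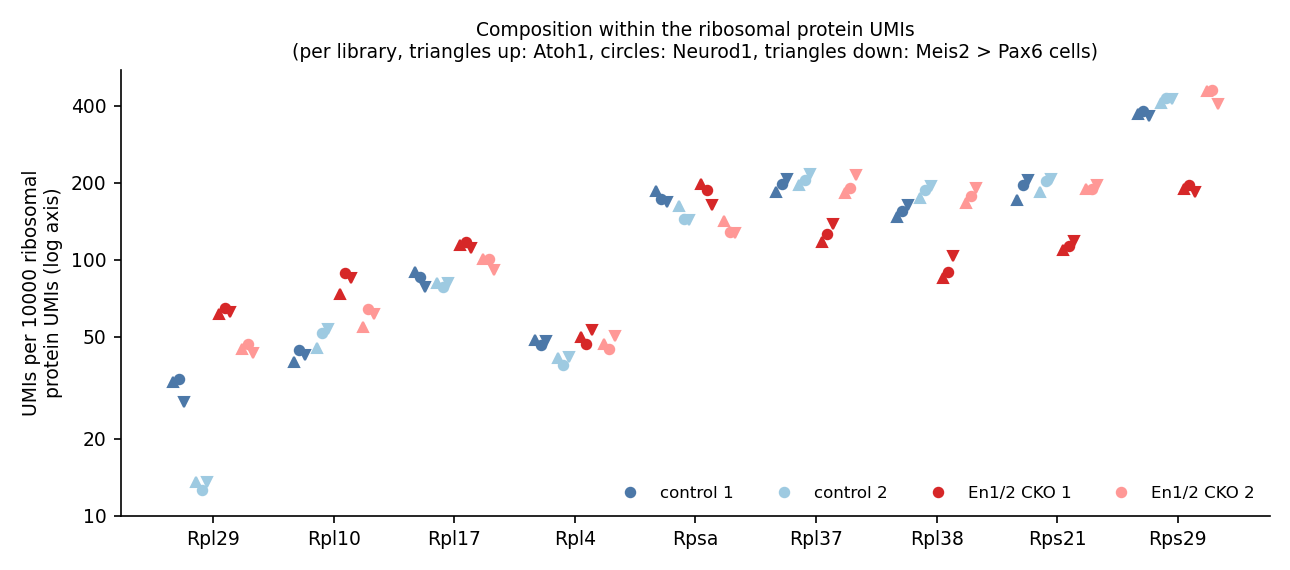
UMIs per 10000 ribosomal protein UMIs (log axis) for 9 of the genes named in the text or of contrasting length (horizontal axis), by library (colour) and gate (symbol). Rpl29, Rpl10 and Rpl17 stand higher in CKO 1 and 2 than in either control in each gate, while Rpl37, Rpl38, Rps21 and Rps29 are low in CKO 1 only.

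The genotype difference was not shown to depend on the gate. The interaction term, which compares the CKO effect in Meis2 > Pax6 cells with that in Atoh1 cells, called 0 of the 83 genes by edgeR (0% of 12617 genes called), and 0 of the 83 had an unadjusted p under 0.05, where 3.92% of all genes did. Its log2 values ranged from -0.41 to -0.03 with a median of -0.20, and that of Rpl29 was -0.08 (SE 0.32). Without control 1 the term was called negative for 6 of the 83 genes, where 1.23% of all genes were. Its median turned positive without control 2 (0.17) and in cells of 4000 UMIs or more with mitochondrial UMIs of no more than 5% (0.43). Of the related lists, 0 of the ribosome biogenesis, TOP translation factor and mitochondrial ribosomal protein genes were called between genotypes in any of the 4 sets of cells by edgeR. At an unadjusted p under 0.05 there were 4, 1, 4 and 3 biogenesis genes, 4, 0, 18 and 4 translation factors, and 19, 1, 36 and 3 mitochondrial genes in all kept, Atoh1, Neurod1 and Meis2 > Pax6 cells, where 11.2%, 4.16%, 14% and 5.07% of all genes passed. DESeq2 called 8 of the translation factors in Neurod1 cells and 0 genes of the lists elsewhere. Their median log2 fold changes over all kept cells were 0.26, 0.52 and 0.45, against 0.80 for the cytosolic set. Npm1 stood at 1202 and 583 CPM in controls 1 and 2, against 1535 and 1408 CPM for the CKO (log2 0.72, SE 0.41, edgeR adjusted p = 0.475).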

How the data were processed

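Gene by barcode UMI counts were deposited by the authors, made with Cell Ranger 5.0.0 on mm10, per the submitters' processing notes. Reads were from a NovaSeq 6000, per the labels. Here, kept cells were summed per library and gate, libraries being the replicates. The labels do not say which libraries shared an experiment, so p-values measure the spread between these libraries. Sums were fitted over all genes with edgeR 4.0.16 (TMM, filterByExpr, quasi-likelihood, Benjamini-Hochberg, threshold 0.05); DESeq2 1.42.0 was an alternative. Genes were named by fixed lists (Rpl29, the P stalk, Rpsa, paralogs) and by size of change: up to 5 called genes each way at 10 CPM or more or, with none called, the 3 largest. The members, lists and rules were chosen with earlier results of these data known, Rpl29 among them, so its difference is no independent evidence. Doublets were removed only as an alternative. The fits were tested on simulated data. Annotation was GENCODE M21.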

Additional observations from a re-analysis of the deposited data

How the results depend on the processing

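The genotype difference in share turned negative by depth: -0.764 percentage points (all kept cells), -1.22 (Atoh1), -0.918 (Neurod1) and -1.11 (Meis2 > Pax6) in cells of 2000 to 6000 UMIs, and -1.525, -1.81, -1.75 and -1.42 in cells under 4000 UMIs. The mean share per cell gave -0.93 in Meis2 > Pax6 cells. The cause was not tested. The limits of under 4000 and at least 8000 UMIs, and the crossed block, were chosen after seeing the data. With 2 libraries a group and deeper CKO cells, genotype, library and depth cannot be told apart; over the alternatives, 85 counts of calls stayed within 1.5 times and 27 did not.

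Of the 83 genes, edgeR called 0 between genotypes in all kept, Atoh1, Neurod1 and Meis2 > Pax6 cells. Without the low-count filter it called 4, 1, 37 and 1, for which no share over all genes is given here. DESeq2 called 3, 1, 58 and 1. Neurod1 cells gave 1 with the ribosomal protein total as library size, and Meis2 > Pax6 cells gave 1 in cells of 4000 UMIs or more with mitochondrial UMIs of no more than 5%. Leaving out a library gave 0 to 52, 0 to 1, 0 to 28 and 0 to 2, and 0 to 6 for the interaction. With that total as library size, 1 gene of the whole table was called higher and 1473 lower over all kept cells, 1 and 142 in Atoh1 cells, and 4 and 1187 in Neurod1 cells. Without TMM the median of all genes moved to -0.137 over all kept cells. Between gates the ribosomal protein total left 10 (Meis2 > Pax6) and 11 (Neurod1) of the 83 genes called, and without the library block 1 was called for Neurod1.

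Same-numbered libraries did not deviate together (correlations of -0.241, -0.234, -0.282 and -0.272). Such correlations cannot tell which libraries shared an experiment. With the replicate block 0, 0, 0 and 1 genes were called between genotypes, and with the crossed replicate block (control 1 with CKO 2) 5, 1, 46 and 2. The crossed pairing was chosen after seeing the data. No share over all genes is given here for either block, so these counts are not read as a result about these genes.

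Log2 differences of single genes between genotypes that changed sign follow. In cells of 2000 to 6000 UMIs they were, over all kept cells, -0.43 for Rps27l, -0.17 for Rpl22l1 and -0.076 for Rpl17. In Atoh1 cells they were -0.15 for Rps27l, -0.35 for Rpl22l1 and -0.10 for Rpl13a. In Neurod1 cells they were -0.59 for Rps27l, -0.29 for Rpl22l1 and -0.11 for Rpl17, and in Meis2 > Pax6 cells -0.76 for Rps27l, -0.41 for Rpl22l1 and -0.17 for Rpl26. In cells under 4000 UMIs they were, over all kept cells, -0.49 for Rps27l, -0.35 for Rpl22l1 and -0.27 for Rpl17. Atoh1 cells gave -0.32 for Rps27l, -0.55 for Rpl22l1 and -0.083 for Rpl13a. Neurod1 cells gave -0.56 for Rps27l, -0.46 for Rpl22l1 and -0.24 for Rpl17, and Meis2 > Pax6 cells -0.43 for Rps27l, -0.31 for Rpl22l1, -0.037 for Rpl10 and -0.21 for Rpl26. Neurod1 cells of at least 8000 UMIs gave -0.044 for Rps27l. Leaving out a library gave -0.039 (without CKO 2) to 0.37 (without CKO 1) for Rps27l in Meis2 > Pax6 cells. With the ribosomal protein total as library size Rps27l was at -0.0075 in Atoh1, -0.11 in Neurod1 and -0.10 in Meis2 > Pax6 cells, and Rpl22l1 at -0.12 in Neurod1 and -0.071 in Meis2 > Pax6 cells.

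Against Atoh1 cells, that total turned Rpl10 to 0.18, Rps7 to 0.14, Rps19bp1 to 0.45 and Rpl36al to 0.29 in Meis2 > Pax6 cells, and Rpl29 to 0.029, Rpl10 to 0.22, Rps7 to 0.15, Rps19bp1 to 0.27 and Rpl36al to 0.065 in Neurod1 cells. Neurod1 cells of at least 8000 UMIs gave 0.028 for Rpl10 and 0.026 for Rps19bp1. The Rpl29 interaction was 0.053 without TMM, 0.12 with the ribosomal protein total, 0.42 without control 2, 0.06 without CKO 2 and 0.44 in cells of 4000 UMIs or more with mitochondrial UMIs of no more than 5%. For these changes the cause was not tested.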

Other observations

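Barcodes outside the gates also held ribosomal protein mRNA. Kept cells in no gate had shares of 8.77% and 7.29% in controls 1 and 2, and of 7.35% and 8.63% in CKO 1 and 2 (752, 782, 323 and 927 cells). Barcodes left out for mitochondrial UMIs over 10% held 7.14%, 5.39%, 5.36% and 5.45%. Barcodes within that limit but with too few genes or UMIs (median 760, 792, 588 and 646 UMIs) held 13.99%, 10.01%, 10.7% and 9.64%, above the share of kept cells under 4000 UMIs in the same library (7.61%, 6.39%, 5.89% and 5.06%). Malat1, the nuclear RNA, took 1.59%, 3.24%, 2.05% and 2.51% of the UMIs in these shallow barcodes.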
